A study of Mus musculus with 48 samples.

Results

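The comparison described here is between progenitor exhausted (Tprog) and terminally exhausted (Tterm) CD8 T cells that carried a guide RNA against Dusp5 and were recovered from tumours of aged mice. It rests on 4 of the 48 ATAC-seq libraries of the series, 2 of Tprog and 2 of Tterm, chosen by guide, host age and sorted state alone, and it covers all 53868 accessible regions (peaks) of the deposited table. All cells of the series were CD45.1 OT-1 CD8 T cells, which recognise the ovalbumin peptide, and all carried Cas9, the control cells included. They had been transduced with a lentivirus holding 1 guide and an ametrine reporter, and were transferred 1 day before B16-OVA melanoma inoculation. Reporter-positive cells were sorted from the tumours at day 15. Tprog cells were gated as Slamf6+ without Tim-3, and Tterm cells as Tim-3+ without Slamf6. Of the 2 other gates, Ttran (transitory, effector-like) had both proteins and Ttad (age-associated dysfunctional) had neither. Groups used beside the Dusp5 cells of aged hosts were cells labelled OTC in aged hosts (2 Tprog and 2 Tterm libraries), cells with a Zfp219 guide in aged hosts (2 and 2), and Dusp5 and OTC cells in young hosts (2 Tprog and 3 Tterm libraries each). OTC is labelled as the control; what it targets and the ages of the hosts in weeks are not given in the sources used here. Host age was read from an A (aged) or Y (young) in each library's name, since the series names these host groups and no other. Each library was a pool of sorted cells from independent mice, between 5000 and 50000 cells, so that the spread between libraries is a spread between pools.

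Tprog cells keep the capacity to self-renew and to give rise to the other exhausted states, and they are held in that state by the transcription factor TCF-1, which Tcf7 encodes. Tterm cells express many inhibitory receptors and effector genes and have lost that capacity. DUSP5 is a dual-specificity phosphatase of the nucleus that binds and dephosphorylates ERK, the last kinase of a cascade downstream of the T cell receptor, and its own gene is switched on by ERK signalling. ATAC-seq counts the cuts a transposase makes in open chromatin, so a value is the accessibility of a region and not the transcription of the gene beside it.

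The promoters of 4 genes show what the comparison is about: Tcf7 and Id3, regulators of the progenitor state, Havcr2, which encodes the Tim-3 protein used for sorting, and Dusp5, the targeted gene. The sequences are from RefSeq (GRCm38.p6) and hold the 250 bases before each annotated start, 5′ to 3′ on the gene's strand. Capitals mark matches, on either strand, to a TCF site (CTTTGA), an AP-1 site (TGANTCA), a CRE (TGACGTCA), an ETS site (CCGGAA), a RUNX site (TGTGGT), an NFAT site (TGGAAA), an E-box (CAGCTG) or a CArG box, the site of serum response factor. The Tcf7 window lies at chr11:52282596-52282845 on the minus strand, Id3 at chr4:136143572-136143821 on the plus strand, Havcr2 at chr11:46454681-46454930 on the plus strand and Dusp5 at chr19:53528895-53529144 on the plus strand.
Tcf7: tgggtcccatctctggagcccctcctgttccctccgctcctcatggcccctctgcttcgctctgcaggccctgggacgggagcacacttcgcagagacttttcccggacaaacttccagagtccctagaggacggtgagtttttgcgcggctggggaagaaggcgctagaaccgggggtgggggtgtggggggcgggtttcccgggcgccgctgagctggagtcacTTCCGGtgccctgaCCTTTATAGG
Id3: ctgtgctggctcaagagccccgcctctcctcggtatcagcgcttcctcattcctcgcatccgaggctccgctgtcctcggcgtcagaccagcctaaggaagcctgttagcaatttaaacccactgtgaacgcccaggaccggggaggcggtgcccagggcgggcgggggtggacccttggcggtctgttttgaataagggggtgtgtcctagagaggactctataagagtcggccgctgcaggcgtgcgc
Havcr2: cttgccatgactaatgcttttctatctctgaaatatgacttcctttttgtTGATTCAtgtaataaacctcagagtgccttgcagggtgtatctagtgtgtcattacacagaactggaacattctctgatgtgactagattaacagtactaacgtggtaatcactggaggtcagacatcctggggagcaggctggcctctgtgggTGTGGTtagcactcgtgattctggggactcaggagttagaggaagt
Dusp5: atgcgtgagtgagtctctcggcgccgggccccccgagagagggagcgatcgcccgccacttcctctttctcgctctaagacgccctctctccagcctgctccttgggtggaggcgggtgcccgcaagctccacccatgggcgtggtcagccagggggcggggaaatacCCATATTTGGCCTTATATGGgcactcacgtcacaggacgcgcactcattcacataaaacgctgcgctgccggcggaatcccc
Tcf7 has 1 match to the ETS letters and 1 CArG box, at the end of the window. Havcr2 has 1 match to AP-1 and 1 to RUNX, Dusp5 has 2 adjoining CArG boxes, and the Id3 window has none of these letters. A match is only a description of the letters. In windows of 300 bases (250 before to 50 after the start), a CArG box was present in 1.53% of all 21237 promoters, an AP-1 match in 6.99%, a RUNX match in 15% and an ETS match in 18.7%.

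At the Tcf7 promoter peak (chr11:52281225-52284085) the normalized values were 529 and 493 in the Tprog libraries and 153 and 112 in the Tterm libraries. The groups did not overlap, and the difference, Tprog minus Tterm on the log2(value + 1) scale used throughout, was 1.95 (SE 0.19, adjusted p = 1.22e-14). The Id3 promoter peak (chr4:136143607-136144833) held 452 and 531 in Tprog against 141 and 168 in Tterm, a difference of 1.67 (SE 0.18, adjusted p = 3.41e-12). At the Havcr2 promoter peak (chr11:46452770-46455391) the order was the other way: 589 and 540.2 in Tprog against 1251 and 1205 in Tterm, a difference of -1.12 (SE 0.08, adjusted p = 1.66e-20). Both Tterm libraries were therefore the high ones at Havcr2 and the low ones at Tcf7 and Id3. The sort is seen at both gate genes. Of 6 peaks assigned to Slamf6, 5 were higher in Tprog and none lower, and of 5 assigned to Havcr2, 4 were lower and none higher.

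At the Dusp5 promoter (chr19:53528476-53530901) the values were 942 and 1084 in Tprog and 865 and 899.7 in Tterm, a difference of 0.20 that did not pass the test (adjusted p = 0.085). Control cells of aged hosts had 893 and 889.9 in Tprog and 1074 and 1116 in Tterm there. A guide makes small edits that a peak value does not report, and the guide's target site is not given in the sources used here, so these values check nothing about the knockout. The locus as a whole was more open in Tterm. Of 17 peaks assigned to Dusp5, none was higher in Tprog and 11 were lower, where control cells had none and 9. The strongest of them, 67133 bp from the gene (chr19:53460413-53462012), held 1006 and 987 in Tprog and 1559 and 1466 in Tterm, a difference of -0.60 (SE 0.08, adjusted p = 1.09e-09).

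Reads in peaks numbered between 5638413 and 14722397 in the 4 libraries, and up to 29942755 elsewhere in the series. The shallowest library of all 48 was replicate 2 of Dusp5 Tterm. Across all peaks the Tprog replicates correlated at r = 0.965 and the Tterm replicates at 0.944, on the log2 scale, and Tprog with Tterm between 0.891 and 0.917. Among markers of cells that the gate should not hold, no peak was assigned to Cd79a, Cd79b or Ms4a1 (B cells), to Csf1r, Lyz2, Adgre1 or C1qa (myeloid cells), to Foxp3, or to Tyr, Dct or Tyrp1 (melanoma). The 2 of 6 B cell markers that had a peak summed to 916 and 1008 in Tprog and 729 and 772 in Tterm, and the remaining 4 of 8 myeloid markers to 2100.1 and 2057 against 2290 and 2203. Other markers also differed between the states: 2 of 3 CD4 and regulatory T cell markers summed to 1027 and 1085 in Tprog and 1386 and 1492 in Tterm, with 2 of 6 peaks lower, and 3 NK cell markers to 4775 and 4629.7 against 4098 and 4219, with 3 of 12 higher. The remaining 3 of 6 melanoma markers had 4 peaks, 1 higher, with sums of 795 and 911 in Tprog and 788 and 785 in Tterm. The 4 dendritic cell markers had 12 peaks, 2 lower, with sums of 2050 and 2233 against 2358 and 2294. Of 4 erythroid markers 2 had a peak, 1 of them higher, with sums of 539 and 497 against 381 and 438. The part of all these markers in the results was not tested. All 6 CD8 T cell markers had peaks, with sums of 13456 and 12707 in Tprog and 12269.9 and 12113 in Tterm. The share of values in some classes of peaks differed between the guides. Peaks on unplaced scaffolds, 110 in number, took 0.79% and 0.75% of all values in Tprog and 2.23% and 2.22% in Tterm, while control cells of aged hosts had 1.27% and 1.23% in Tprog and 0.88% and 0.90% in Tterm. The order of the states was thus reversed in that share, in both replicates. A single peak, on the scaffold JH584304, held most of this signal in each of these libraries. Of the 110 peaks, 3 were called higher and 45 lower in Dusp5 Tprog, against 29 and 0 in control Tprog. The order was also reversed for the weakest 25% of peaks, which took 2.1% and 2.08% in Dusp5 Tprog and 2.31% and 2.26% in Dusp5 Tterm. In control cells they took 2.22% and 2.22% in Tprog and 1.76% and 1.79% in Tterm.

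Of the 53868 peaks, 12336 differed between Tprog and Tterm with the Dusp5 guide, which is 22.9% of all tested. Higher in Tprog were 5569 (10.3%) and lower 6767 (12.6%), and the median difference over all peaks was -0.0049. A difference of at least 1 on the log2 scale was reached by 2226 of the higher and 3467 of the lower peaks. The 2 groups of libraries did not overlap at 57.5% of all peaks, and 12217 of the called peaks were among these. Without the shallow Tterm replicate 2 the count fell to 7889, with the lone Tterm library assumed to vary like the other groups, it was 8124 without replicate 1 of Tprog, and it was 6164 with DESeq2 on recovered reads. The edgeR quasi-likelihood test on those reads called 11368 of the 12336 in the same direction.

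**Figure D1:**
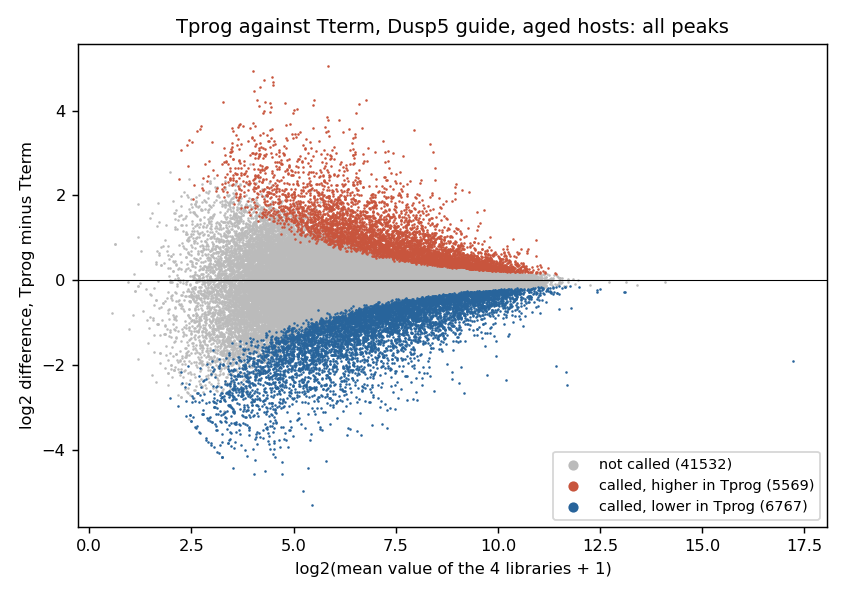
Log2 difference between Tprog and Tterm with the Dusp5 guide in aged hosts (y axis, Tprog minus Tterm) against log2 of the mean value of the 4 libraries plus 1 (x axis), 1 point per peak. The 5569 peaks called higher in Tprog are red, the 6767 called lower are blue and the others grey. The far right point is a scaffold peak.

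Promoters and other regions moved differently. Of 9253 promoter peaks, 1102 were higher in Tprog (11.9% against 10.3% of all peaks) and 304 lower (3.29% against 12.6%). Promoters therefore departed from all peaks mainly in their small share of lower peaks. Of 2760 peaks with no protein-coding gene within 100 kb, 309 were higher (11.2%) and 546 lower (19.8%). In control cells of aged hosts the promoter counts were 334 higher and 703 lower, and those far from genes 409 and 268. Beside these counts, promoter peaks took 39.8% and 40.2% of all values in Dusp5 Tprog and 37.3% and 37.5% in Dusp5 Tterm, against 38.3% and 38.5% in control Tprog and 38.8% and 38.4% in control Tterm. The part this difference in composition has in the promoter counts was not tested. Promoter windows also differed in their letters. An AP-1 match was present in 11.2% of the 358 windows in peaks lower in Tprog, in 3.44% of the 1367 in peaks higher in Tprog, and in 4.39% of the 9545 in peaks that were not called. A RUNX match was present in 21.8%, 11.6% and 11.8% of the same windows. An ETS match, at 20.4%, 26.3% and 31.1%, was less frequent in both called classes than in peaks that were not called. A GC box (GGGCGG) went the other way from AP-1, at 56.4%, 71.5% and 68.1%. An NFAT match was present in 14.2%, 15.9% and 15.5%, and the other site types are not reported here. The median GC content was 60.7%, 63.0% and 62.0%, and these shares carry no test.

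Genes known for the progenitor state were more open in Tprog. For each gene, the largest peak is the called one with the largest difference, and the strongest peak the one with the highest mean value over all 48 libraries. Of 207 peaks assigned to 13 progenitor and memory-like factors, 60 were higher in Tprog (29.0% against 10.3% of all peaks) and 24 lower, with a median difference of 0.24. Tcf7 had 8 of its 12 peaks higher and none lower, and Id3, an inhibitor of E proteins, had 6 of 7. The largest difference at Tcf7 was inside the gene (chr11:52268178-52268844), where Tprog libraries held 325 and 292 and Tterm libraries 37.6 and 37.3. This is a difference of 3.01 (SE 0.31, adjusted p = 3.03e-13), and the Tterm libraries were both far below the Tprog libraries. At the largest Id3 peak, 36465 bp from the gene (chr4:136106423-136107357), the values were 776 and 808 against 182 and 196, a difference of 2.06 (SE 0.18, adjusted p = 3.74e-17). Satb1, a chromatin organiser of T cells, had 4 of 9 peaks higher, the largest at 290.4 and 299 against 70.5 and 46.6. Foxp1, which keeps T cells quiescent, had 12 of 46 peaks higher and 3 lower, where control cells had 25 and 1. A test of the difference between the guides, given below, called 1 Foxp1 peak and no Bach2 peak. Bach2, a repressor of effector genes, had 11 of 35 higher and 4 lower, where control cells had 15 and 4. Its largest called difference, 1.12 (chr4:32290960-32291933), missed the threshold without replicate 1 of Tprog (0.88) and without replicate 2 of Tterm (0.97).

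Not all members of that list moved toward Tprog. Myb, a factor of self-renewal, had 3 peaks higher and 6 lower of 14. The largest of these, at chr10:21115176-21116075, held 112 and 82.3 in Tprog and 640 and 548 in Tterm, a difference of -2.61 (SE 0.19, adjusted p = 1.48e-20). Lef1, the relative of TCF-1, had 1 higher and 3 lower of 16, and the largest difference there was -1.44 (chr3:131056970-131057929, with 226 and 343 against 713 and 809). These 2 genes were therefore more open in Tterm at their most different peaks, and they were so in control cells as well, by -1.88 and -1.25.

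Surface and secreted genes of the progenitor list went the same way. Of 135 peaks, 50 were higher (37.0%) and 6 lower, with a median difference of 0.35. Ccr7, the receptor that guides T cells to lymphoid tissue, had 8 of 11 peaks higher. At its largest (chr11:99170736-99171681) the values were 645 and 560.3 in Tprog and 99.4 and 53.6 in Tterm, a difference of 3.02 (SE 0.24, adjusted p = 5.05e-19). Cxcr5, a follicle-homing receptor, had 7 of 9 higher, with 111 and 108 against 21.2 and 9.32 at its largest (chr9:44554836-44555667). Xcl1, the chemokine that draws cross-presenting dendritic cells, had 5 of 18 higher. Its largest difference was 4.15 (SE 0.59, chr1:164881843-164882923), with 203 and 159 in Tprog and 17.4 and 4.66 in Tterm. The cytokine gene Il2 had 5 of 6 higher, with 777 and 725 against 353 and 340.3 at its strongest peak (chr3:37172987-37175105). None of the 5 peaks of Il7r, the IL-7 receptor, was called.

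**Figure D2:**
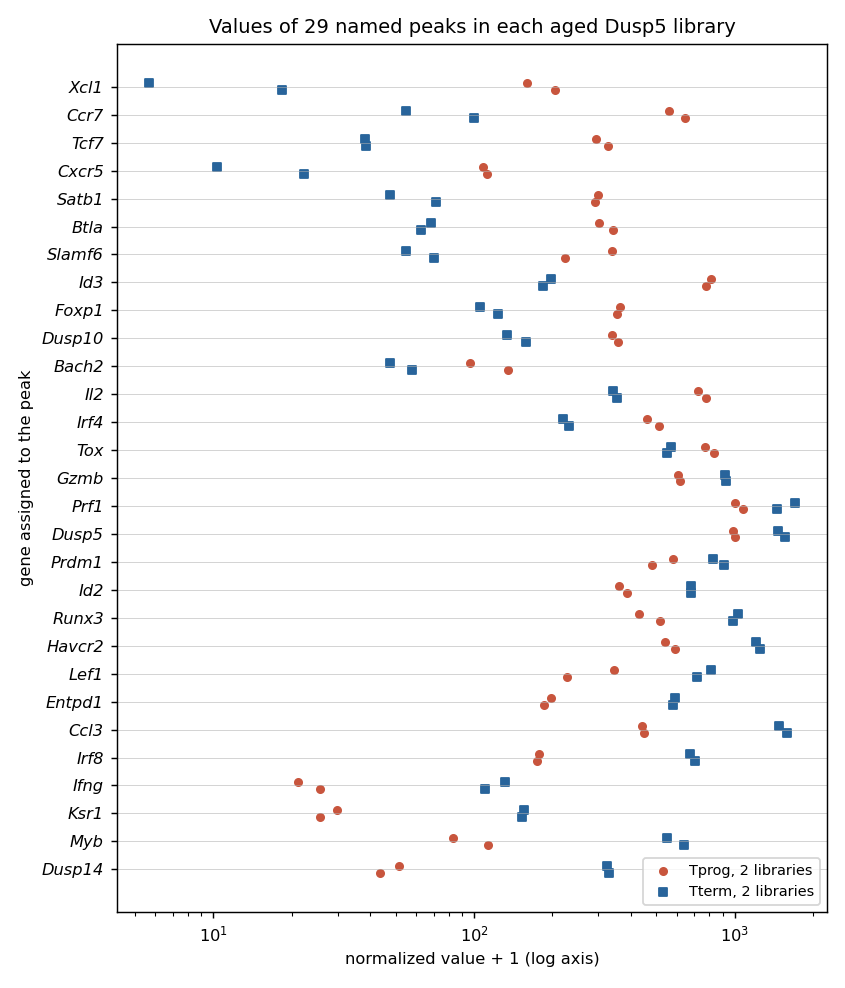
Normalized value plus 1 (x axis, log scale) of 29 peaks, 1 row per gene, in each of the 2 Tprog libraries (red circles) and 2 Tterm libraries (blue squares) with the Dusp5 guide in aged hosts. Rows are ordered by the log2 difference, from Xcl1 at 4.15 to Dusp14 at -2.78. They were picked as the strongest or most different peaks of listed genes. The 2 groups of libraries do not overlap in any row, nor at 57.5% of all peaks and 12217 of the 12336 called ones.

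Factors of terminal exhaustion were more open in Tterm, with exceptions that had many peaks. Of 265 peaks assigned to 18 genes, 65 were lower in Tprog (24.5% against 12.6% of all peaks) and 32 higher, with a median difference of -0.13. Prdm1, which encodes the repressor BLIMP-1, had 14 of 22 peaks lower and none higher. At its strongest peak (chr10:44400135-44401483) the values were 481 and 580.5 in Tprog and 909 and 825 in Tterm, a difference of -0.71 (SE 0.10, adjusted p = 2.33e-08). Id2, the counterpart of Id3 in effector cells, had 6 of 9 lower, and Rbpj, the nuclear partner of Notch, 10 of 33. Irf8 had 7 of 18 lower, and at its largest (chr8:120791265-120792238) the values were 173 and 177 against 702 and 671. Runx3, a factor of cytotoxic identity, had 5 of 23 lower and 1 higher.

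Tox and Nr4a1 did not follow the list. Tox, the factor that establishes the exhausted state, had 13 of 27 peaks higher in Tprog and none lower, which placed it among the 10 genes with the most higher peaks. Its strongest peak (chr4:6988930-6991618) held 832 and 771 in Tprog and 548 and 571 in Tterm, a difference of 0.52 (SE 0.11, adjusted p = 0.000179). In control cells 6 Tox peaks were higher and 1 lower, and the difference between the guides was itself called at 1 of the 27. Nr4a1, an early gene of receptor signalling, had 4 of 6 peaks higher. Stat3, which transmits cytokine signals, had 4 higher and 2 lower of 10, and Tox2, the relative of Tox, 2 higher and 1 lower of 7. Irf4, another early gene of receptor signalling, had 2 higher and 1 lower of 12, the largest at 512 and 461 against 231 and 219.

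Among inhibitory receptors and ectoenzymes, 29 of 92 peaks were lower in Tprog and 14 higher, with a median difference of -0.07. Entpd1, which encodes CD39, an enzyme that breaks down extracellular ATP, had 10 of 12 peaks lower. At its promoter (chr19:40659633-40662398) the Tprog libraries held 184 and 196 and the Tterm libraries 578 and 587, a difference of -1.61 (SE 0.12, adjusted p = 6.41e-21). Klrg1 had 6 of 9 lower and Cd244a 3 of 4. The higher peaks were on other receptors of the list: 5 of 7 at Btla, with 341 and 300.3 against 61.8 and 67.6 at its largest (chr16:45251652-45252657), and 2 of 6 at Cd101. No peak of Lag3, Cd38 or Cd96 was called, of 4, 5 and 3. Pdcd1, which encodes PD-1, had 1 higher and 1 lower of 9.

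Cytotoxic and effector cytokine genes had the largest share of lower peaks of the 12 lists. Of 108 peaks, 47 were lower in Tprog (43.5%) and 3 higher, with a median difference of -0.34. Ifng had 19 of 27 peaks lower and none higher, the most lower peaks of any gene. At the largest (chr10:118516829-118518208) the values were 24.7 and 20.1 in Tprog and 109 and 131 in Tterm, a difference of -2.37 (SE 0.33, adjusted p = 1.34e-08). Gzmb, the main granzyme, had 5 of 9 lower, and its promoter (chr14:56261701-56263110) held 617 and 607 against 925 and 916. Prf1, which encodes perforin, had 3 of 6 lower, with 1078 and 1004 against 1454 and 1704 at its promoter. No peak was called at Tnf or Gzma (2 each) or at Srgn (4). Chemokine genes moved with them. All 4 peaks of Ccl3, all 4 of Ccl4 and all 7 of Ccl5 were lower, and at the largest Ccl3 peak (chr11:83628444-83630271) Tprog held 448 and 440.4 and Tterm 1587 and 1482. Several receptors went the other way, with 5 of 12 peaks of Cxcr4 and 2 of 5 of Cxcr3 higher, and Ccr2 had 4 of 5 lower. Of the whole chemokine list of 58 peaks, 10 were higher and 21 lower, with a median of -0.15.

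**Figure D3:**
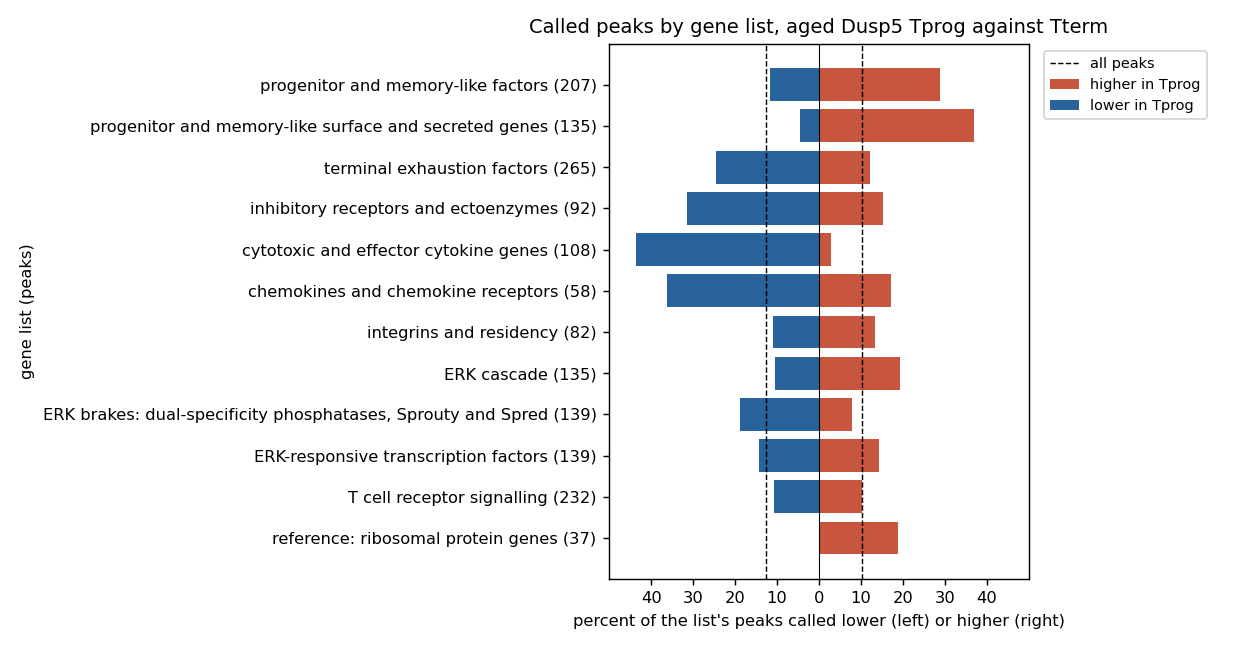
Share of each gene list's peaks called higher (red, right) or lower (blue, left) in Tprog than in Tterm with the Dusp5 guide in aged hosts, in percent, with the number of peaks beside each name. Dashed lines mark the shares over all peaks, 10.3% higher and 12.6% lower. The progenitor lists extend to the right and the cytotoxic list, at 43.5% lower, to the left.

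The cascade that DUSP5 acts on showed differences in both directions. Of 135 peaks at 17 genes of the ERK cascade, 26 were higher in Tprog (19.3%) and 14 lower (10.4%), with a median difference of 0.13. Ksr1, a scaffold of the cascade, had 2 higher and 1 lower of 19, and the lower one was its largest, at 24.7 and 28.9 against 152 and 154 (chr11:79071191-79071971). Mapk3, which encodes ERK1, had 2 peaks, and neither was called.

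Brakes of the cascade were counted as a list too. Of 139 peaks at 16 dual-specificity phosphatase, Sprouty and Spred genes, 26 were lower in Tprog (18.7%) and 11 higher (7.91%), with a median of -0.12. Dusp5 itself gave 11 of the 26, and without its 17 peaks 15 of 122 were lower (12.3%) and 11 higher (9.02%), near the 12.6% and 10.3% of all peaks. Spred2 had 5 of 18 lower and Dusp16 3 of 9. Dusp14 had its larger peak lower (chr11:84055599-84056374), with 42.6 and 50.8 in Tprog and 328 and 322 in Tterm, a difference of -2.78 (SE 0.20, adjusted p = 9.26e-22). Spry1, an inhibitor of Ras signalling, had 4 of 6 peaks higher, and Dusp10, which acts on JNK and p38, had 2 of 11 higher, at 357 and 338 against 157 and 133 for the largest. No peak of Dusp6, the cytoplasmic ERK phosphatase, or of Dusp4, Dusp7 or Spry2 was called. ERK-responsive transcription factors split evenly, with 20 of 139 peaks higher and 20 lower (14.4% each) and a median of 0.02. Fos had 3 of 10 higher, Jun 2 of 8 and Myc 3 of 10 with 1 lower, whereas Elk3 had 6 of 21 lower, Ets2 5 of 12 with 2 higher, and Egr2 3 of 7. None of the 3 Egr1 peaks was called.

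Genes of T cell receptor signalling (24 higher and 25 lower of 232 peaks, median 0.03) and of integrins and tissue residency (11 higher and 9 lower of 82, median 0.06) stayed close to the shares of all peaks. Ribosomal protein genes, chosen as a reference, had 7 of 37 peaks higher and none lower, with a median of 0.26, against 5 higher, 1 lower and 0.07 in control cells. Of the 7, 4 are peaks assigned to Rpl11 that lie between that gene and Id3, and the Rpl11 promoter itself differed by 0.07 (adjusted p = 0.74). A peak is assigned to a gene by position alone, so these 4 could as well be counted at Id3.

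The widest single differences were at small peaks. The largest rise in Tprog was inside Sh3kbp1, an adaptor gene (chrX:159898866-159899554), with 101 and 114 in Tprog and 9.65 and 0 in Tterm, a difference of 5.05 (SE 0.74). Others among the 10 largest lay at or near Tnfsf11, which encodes RANKL, and at Npas4, Tox and Tox2. A region with no gene within 100 kb (chr11:44256510-44256852) held 25.8 and 34.1 in Tprog and no read in either Tterm library, so Tprog was at least 6.06-fold higher, counting 3 reads in each Tterm library as the floor. The largest fall was at the promoter of Gzmd (chr14:56132391-56133267), at 0 and 3.50 in Tprog and 68.5 and 97.9 in Tterm, a difference of -5.29 (SE 0.51). The Gzmf promoter (chr14:56210967-56211902) fell by 4.43. Both belong to a cluster of near-identical granzyme genes, between which reads may not be told apart, so the split between them is uncertain. Map6, Neb and Hdac8 held others of the 10 largest falls, at -4.96, -4.28 and -4.25, and these 5 genes fell in control cells too, by 2.21 to 3.34.

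Counted by gene, Asap1 had the most peaks higher in Tprog, 19 of 30, followed by Arhgef3 (18 of 36), Rad51b (14 of 43), Inpp4b and Nrp1 (13 each), and Bcl2 and Dapl1 (12 each). Bcl2 encodes a survival factor and had none of its 23 peaks lower, and Dapl1 had 12 of only 14 peaks higher. On the other side, Filip1, Prdm1 and Rgs3 had 14 lower peaks each, fewer than Ifng. Cdk6, a cell cycle kinase, and Prex1 had 13 each. Control cells of aged hosts had counts within 2 of these at the genes named in this order. Of the other genes among the 10 with the most peaks in either direction, Tox had 13 higher against 6 in control cells, Foxp1 12 against 25, Bach2 11 against 15, and Sipa1l1 12 lower against 5. These counts come from separate tests in each guide. The test of the difference between the guides, given below, called 1 peak at Tox, 1 at Foxp1 and none at Bach2. Of 15025 genes with a peak, 2461 had called peaks only higher, 2553 only lower and 904 in both directions.

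Control cells of aged hosts share no library with the Dusp5 cells. Between their Tprog and Tterm 10806 peaks were called (20.1%), 4783 higher (8.88%) and 6023 lower (11.2%). Both guides called 6314 peaks in the same direction, which is 51.2% of the Dusp5 calls and 58.4% of the control calls, and 87 in opposite directions. The difference between the 2 differences was itself called at 542 peaks (1.01%), 237 more positive and 305 more negative with the Dusp5 guide, and edgeR called 500 of them in the same direction. Of the 5935 peaks called with the Dusp5 guide and not in control cells, 282 passed this test of the difference. The split depended on the setting. Quantile normalization, another scaling, gave 85 more positive and 220 more negative, the fit of the compared groups alone 94 and 265, and removal of the weakest 25% of peaks 241 and 187. Without replicate 2 of Dusp5 Tterm 208 peaks were called, and without replicate 1 of it 830. Leaving out Dusp5 Tprog replicate 1 gave 278 and replicate 2 gave 388. Leaving out a control library gave 243 and 292 for Tprog replicates 1 and 2 and 235 and 346 for Tterm replicates 1 and 2. In control cells alone the count of 10806 was 7076 without Tprog replicate 1.

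**Figure D4:**
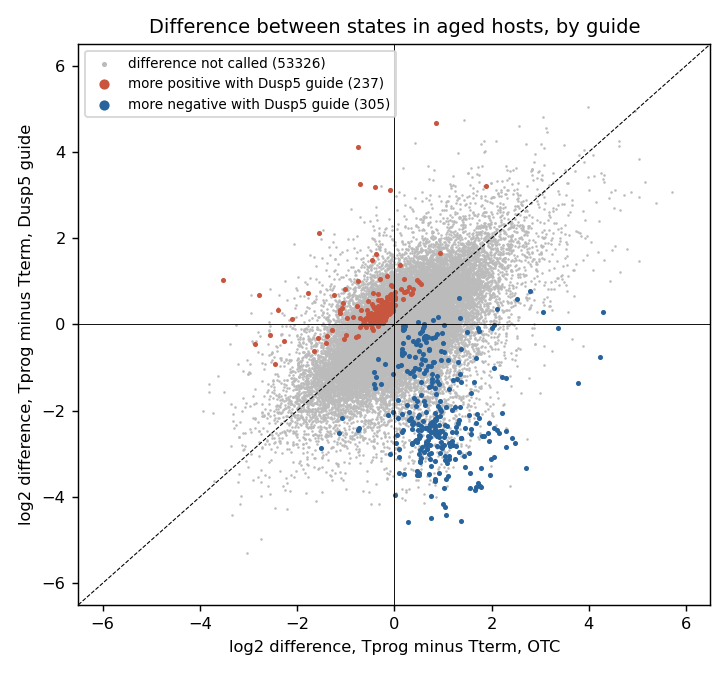
Log2 difference Tprog minus Tterm with the Dusp5 guide (y axis) against that in control OTC cells (x axis), both in aged hosts, 1 point per peak. Red and blue mark the 237 and 305 peaks at which the 2 differences themselves differ, and the dashed line is equality. The blue points have a median of -2.27 with the Dusp5 guide and of 0.76 in control cells.

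The 305 more negative peaks held larger shares of weak peaks and of peaks far from genes than all peaks did. They included 121 from the weakest 25% of peaks (39.7%) and 103 with no gene within 100 kb (33.8% against 5.12% of all peaks). A further 95 lay in gene bodies and 103 within 100 kb of a gene. On unplaced scaffolds were 41 of the 110 peaks there, and only 4 were promoters. Their median value was 29.2 and 31.5 in the Dusp5 Tprog libraries and 111.0 and 109.6 in the Dusp5 Tterm libraries. In control cells it was 65.7 and 63.0 in Tprog and 34.9 and 37.6 in Tterm. The other 2 Dusp5 states lay between, at 58.9 and 58.0 in Ttran and 86.4 and 88.6 in Ttad. The strongest scaffold peak by mean value, of 45855 bp on JH584304, was among the 305. It held 67556 and 63154 in Dusp5 Tprog against 242780 and 241557 in Dusp5 Tterm. In control cells it held 120762 and 116353 in Tprog against 86161 and 88474 in Tterm. Of the 237 more positive peaks, 194 were from the strongest 25% and 115 were promoters, a class that holds 9253 of all 53868 peaks. The median value of the 237 was 811 and 796 in Dusp5 Tprog and 622 and 622 in Dusp5 Tterm. In control cells it was 701 and 684 in Tprog and 832 and 794 in Tterm. These 2 sets were chosen by the same values, which are given as a description. The scaffold and promoter shares of the libraries moved with them, and their part was not tested.

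Of the 1629 peaks of the 12 lists, 14 were among the 542 (0.859% against 1.01% of all peaks), at 12 genes. At the Dusp5 promoter the difference of differences was 0.49 (SE 0.12, adjusted p = 0.019), from 0.20 with the guide and -0.30 in control cells. At a weak Dusp5 peak 20864 bp from the gene (chr19:53507249-53508281) it was -1.98 (SE 0.51, adjusted p = 0.030). The values there were 19.1 and 47.3 in Dusp5 Tprog and 116 and 154 in Dusp5 Tterm, against 49.8 and 63.0 and 54.5 and 69.6 in control cells. The Pdcd1 promoter (chr1:94051833-94056880) was at 2906 and 2825 in Dusp5 Tprog and 2585 and 2478 in Dusp5 Tterm, and at 2517 and 2749 against 2929 and 3063 in control cells. Its difference was 0.18 with the guide, -0.19 without it, and 0.37 between them (SE 0.08, adjusted p = 0.0034). Runx3 gave 2 of the peaks (0.51 and 0.40) and Tox 1 (0.58, at chr4:6901278-6904000). That Tox region held 635 and 633 in Dusp5 Tprog and 359 and 331 in Dusp5 Tterm, and 610.3 and 627 against 504 and 500.4 in control cells. Of the 14 peaks, all missed the threshold under at least 1 alternative.

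One called peak in a T cell marker gene was of another kind. Inside Thy1 (chr9:44046603-44047436) the control Tterm libraries held 959 and 829 and the control Tprog libraries 135 and 122, whereas Dusp5 cells had 177 and 222 in Tprog and 129 and 117 in Tterm. The difference of differences was 3.47 (SE 0.20), the smallest adjusted p of the listed and marker genes (1.13e-26). The control Tterm libraries were the high ones of these 8. The same peak held 4884 and 4611 in control Ttad and 2944 and 3051 in control Ttran of aged hosts, 3158 and 3153 in Zfp219 Ttran and 567 and 668 in Zfp219 Ttad of aged hosts, and between 248 and 279 in control Tterm of young hosts. Replicates of a state lay close together at this peak.

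Against the Zfp219 guide in aged hosts, whose libraries are again separate, 1075 peaks (2%) had a different difference, 478 more positive and 597 more negative. Of the more negative ones 201 were also more negative against control, and of the more positive ones 55 were also more positive against control. Both comparisons use the same Dusp5 libraries, so these overlaps are not independent agreement. The largest, by rule, were at small peaks: near Irx1, a homeobox gene (chr13:71945363-71946471), Dusp5 cells held 0 and 1.75 in Tprog and 37.6 and 35.0 in Tterm, and Zfp219 cells 14.2 and 16.2 against 1.72 and 4.07. Tprog was thus the lower state with the Dusp5 guide and the higher one with the Zfp219 guide. Near Gm51572 (chr8:55123091-55123574), among the largest against control, Dusp5 cells held 2.24 and 2.63 in Tprog and 40.5 and 51.3 in Tterm, and control cells 23.8 and 38.2 against 5.45 and 13.7. Zfp219 cells held 31.3 and 10.2 against 13.8 and 10.6 there, which overlap. Without Dusp5 Tterm replicate 2 the count against Zfp219 was 465, and without Dusp5 Tprog replicate 1 it was 510. Leaving out Zfp219 Tprog replicate 1 gave 532, and leaving out Zfp219 Tterm replicate 1 or 2 gave 517 or 510.

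The same guide in young hosts gave a wider contrast. Sample-sheet numbers run separately in aged and young hosts, so host age and sample sheet cannot be told apart in it. Between the host groups 4268 peaks (7.92%) had a different difference, 1909 more positive and 2359 more negative in aged hosts. Of the more positive, 1104 were promoters, which is 11.9% of promoter peaks against 3.54% of all peaks. The count was 2503 without Dusp5 Tprog replicate 1 of aged hosts and 2575 without Dusp5 Tterm replicate 2. Over all peaks 3.54% were more positive and 4.38% more negative, and over the 1629 peaks of the 12 lists 2.33% and 8.04%. Of 135 peaks of the surface and secreted list 22 were more negative and 2 more positive, and of 207 peaks of progenitor factors 25 and 8. Other lists had more negative than positive calls as well, with 20 and 8 at terminal exhaustion factors, 14 and 2 at T cell receptor signalling, 8 and 1 at inhibitory receptors and 7 and none at cytotoxic genes. At the largest Id3 peak young hosts had 786 and 790.1 in Tprog and 95.6, 114 and 68.6 in Tterm, a difference of 3.10 against 2.06 in aged hosts (difference of differences -1.04, SE 0.24, adjusted p = 0.0019). At Ccr7 it was 4.19 in young and 3.02 in aged hosts (-1.16, SE 0.32, adjusted p = 0.013). The Tcf7 region differed by 3.92 in young and 3.01 in aged hosts, which did not pass (adjusted p = 0.19). Of the 17 Dusp5 peaks 5 were more negative and 1 more positive. The strongest held 1222 and 1091 in Tprog and 1221, 1162 and 1325 in Tterm of young hosts, a difference of -0.10, against -0.60 in aged hosts (adjusted p = 0.00056). The more positive one was the promoter, at 847 and 879 in Tprog and 1076, 945 and 952 in Tterm of young hosts (difference of differences 0.39, SE 0.11, adjusted p = 0.019). Ribosomal protein genes had 7 of 37 peaks more positive and none more negative. The difference between ages in control cells was not subtracted here.

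Regions that separate the states in control cells of young hosts gave a scale. The differences that define it use no library of aged hosts or of the Dusp5 guide, but the spread behind the calls came from all 48 libraries. In young control Tprog 3751 peaks were called and at least 1 log2 unit higher. Of these, 1719 were higher with the Dusp5 guide in aged hosts (45.8% against 10.3% of all peaks) and 138 lower, with a median of 0.94. Control cells of aged hosts had 2160 higher and 1 lower, with a median of 1.16. Of 2187 peaks open by the same rule in young control Tterm, 1329 were lower with the Dusp5 guide (60.8% against 12.6%) and 1 higher, with a median of -1.24. Control cells of aged hosts had 1224 lower, at -1.12. The mean log2 value of the first set minus that of the second was 1.44 and 1.46 in Dusp5 Tprog and -0.72 and -0.75 in Dusp5 Tterm. Control libraries of aged hosts had 1.44 and 1.44 in Tprog and -0.97 and -0.99 in Tterm, so the Tprog libraries of both guides lay together and the Dusp5 Tterm libraries lay above the control ones. No test was made of this score. Of the 3751 peaks, 98 had a difference more negative than in control cells.

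**Figure D5:**
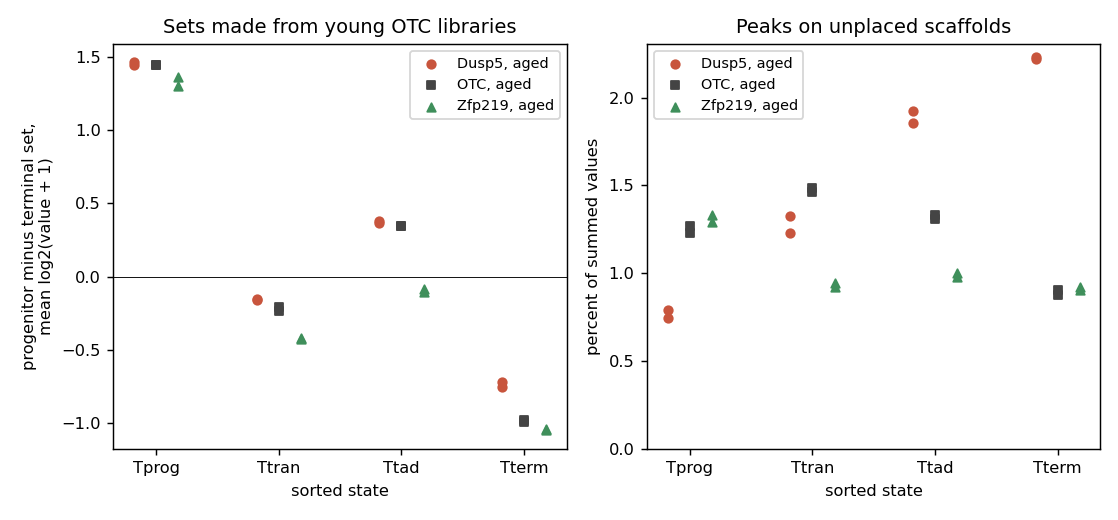
Left, mean log2(value + 1) over peaks open in young control Tprog minus that over peaks open in young control Tterm (y axis), for each sorted state (x axis) in aged hosts, 1 point per library, by guide. Right, percent of the summed values that fell in peaks on unplaced scaffolds. On the left Dusp5 Tterm lies at -0.72 and -0.75, above both other guides, and on the right Dusp5 libraries run from 0.79% and 0.75% in Tprog to 2.23% and 2.22% in Tterm.

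The other Dusp5 states of aged hosts lay between Tprog and Tterm at most of these regions. At the 2226 peaks higher in Tprog by at least 1, the median place of Ttran on the way from Tterm to Tprog was 46.1% and 43.5% in its 2 libraries, and that of Ttad 58.9% and 61.5%. At the 3467 peaks lower in Tprog by at least 1 it was 24.5% and 26.1% for Ttran and 41.2% and 40.3% for Ttad. Ttad, which lacks both gate proteins, was therefore nearer to Tprog than Ttran was in both sets and in all 4 libraries, and Ttran was nearer to Tterm at the regions that open there. The ends of this scale were set by the 4 Tprog and Tterm libraries, so the places are a description.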

How the data were processed

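ATAC-seq of 48 libraries in 21 groups was deposited by the authors as 1 table of 53868 peaks with a normalized signal per library. Per the submitters' processing notes, Bowtie2 2.2.9, Picard 2.8.0, SAMtools 1.3.1, MACS2 2.1.1 and DESeq2 1.28.1 were used and the build was mm10; filters and how peaks were called or pooled are not given in the sources used here. The deposited signal behaves as reads divided by 1 factor per library: values are whole multiples of 1 step, and 100% came out as whole reads within 0.01. Values were compared as log2(value + 1), which understates differences at weak peaks, with limma 3.58.1 (R 4.3.3; lmFit and eBayes with trend), a mean per group over all 48 libraries, Benjamini-Hochberg adjustment over all peaks, two-sided, called at an adjusted p under 0.05. Differences of differences were contrasts of the same fit. As alternatives the fit was repeated with quantile normalization, without the weakest 25% of peaks, with 8 as the pseudocount, with the compared groups alone, with a replicate block, with edgeR 4.0.16 and DESeq2 1.42.0 on recovered reads, leaving out each library, and, chosen after seeing the data, voom precision weights. The count tests and voom left out replicate 1 of young Zfp219 Tprog, whose step lies within 0.01 of 1. The limma, edgeR and voom steps were tested on simulated data. A peak belongs to the RefSeq (GRCm38.p6) protein-coding gene it overlaps, else the nearest within 100 kb. It is a promoter peak if it overlaps a window from 250 bases before to 50 after an annotated start. For the motif shares, a window was counted in a promoter peak that holds its start. Strand was used only to place these windows, and exons and introns were not used. Named peaks are the 10 largest called differences in each direction with a mean of at least 20 in the higher group, the strongest or most different peak of up to 30 listed genes, the 10 genes with most called peaks in each direction and the 5 largest of each difference of differences; the text gives part of these, and some genes of the lists are counted but not reported here by name. Peaks of listed genes called in the difference of differences, the Dusp5 locus, the Thy1 peak, the strongest scaffold peak and the motifs were chosen after values were seen. The comparison, members and gene lists were chosen with earlier results of these data known.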

Additional observations from a re-analysis of the deposited data

Results flagged for a closer look

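A test of the difference between groups, an interaction contrast of the same limma fit, passed at 542 peaks for the Dusp5 guide against control in aged hosts, at 1075 against the Zfp219 guide and at 4268 for aged against young hosts with the Dusp5 guide. The Tprog minus Tterm difference at the Thy1 peak was 3.47 log2 units more positive with the Dusp5 guide than in control cells, and it passed under each alternative tried. Among listed genes the peaks that were more positive with the guide were at or near Rpl11 (0.73), Ubash3a (0.62), Tox (0.58), Zeb1 (0.53), Runx3 (0.51 and 0.40), the Dusp5 promoter (0.49), Myc (0.39), the Pdcd1 promoter (0.37) and the Dusp1 promoter (0.35). More negative with the guide were the distal Dusp5 peak (-1.98) and peaks at or near Fyn (-1.44), Rasgrp1 (-1.13) and Foxp1 (-0.61).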

How the results depend on the processing

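The Tprog against Tterm count of 12336 was 6164 with DESeq2 and 7889 to 10576 with 1 library left out, and the control count of 10806 was 7076 to 7467. Against control the 542 became 305 under quantile normalization, 359 in the compared groups alone and 208 to 830 with 1 library left out. The 1075 against Zfp219 became 465 to 1416 and the 4268 against young hosts 2503 to 4108. Each lowest value but 2 came without Dusp5 Tterm replicate 2, the shallowest library; for young hosts it was Dusp5 Tprog replicate 1 and for control cells OTC Tprog replicate 1. The other alternatives kept each count within 1.5 times. Replicate numbers did not pair the states (correlation of deviations 0.0022 between Tprog and Tterm), and with a replicate block the counts were 12204, 490, 997, 3926 and 10713. Of the 36 named differences between Tprog and Tterm, 35 kept direction and call under every alternative run, and Bach2 missed the threshold with DESeq2 (1.13) and without either of 2 libraries. Of the 14 differences of differences at listed genes, none changed sign under the alternatives run and each lost its call under at least 1. Depth limits the small peaks, where few reads stand behind a value.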
